A study of Mus musculus with 3 samples.

Results

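The 6 genes described here write DNA methylation or help to write it: the methyltransferase genes Dnmt1, Dnmt3a and Dnmt3b, their relative Dnmt3l, and the partner genes Uhrf1 and Hells. They were chosen by name, and every array probe assigned to them by a RefSeq accession was taken. This gave 9 probes, of 41174 probes on the array and of 16624 genes that could be named: 3 probes for Dnmt3a, 2 for Uhrf1 and 1 each for the other genes. The RNA came from whole gonads of male mouse embryos without Cyp26b1 (genotype Cyp26b1-/-, mouse line MCH), taken at embryonic days 12.5, 13.5 and 14.5 and called by those days below. The missing gene encodes a P450 enzyme that degrades retinoic acid. Each stage was hybridised to 2 Agilent 1-colour arrays, biological duplicates according to the series design, and no control genotype was analysed here. Every comparison below is therefore between stages of the mutant gonad. Whether a sample pooled several embryos is not given in the sources used here.

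DNA methylation is copied to the new strand after replication by DNMT1, which is brought to hemimethylated sites by UHRF1. The chromatin remodeller HELLS (also called LSH) opens compact chromatin for methylation. New methylation is laid down by DNMT3A and DNMT3B, and DNMT3L, which has no catalytic activity of its own, stimulates them. In the mouse embryo the germ line loses most of its methylation before and around the time it enters the gonad, and male germ cells then regain it as prospermatogonia, with DNMT3A and DNMT3L as the main actors. Somatic cells of the gonad keep their methylation. Whole gonads mix both kinds of cell, so fewer cells of a type and less RNA per cell cannot be told apart in any value below.

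The promoters are shown first. E2F factors drive genes of S phase, when methylation is copied, so their binding letters were searched. RefSeq promoter windows on GRCm38.p6, each 300 bases long (250 before the start and 50 after it), were found for all 6 genes, 13 windows in all. The E2F letters searched on both strands were TTTCCCGC, TTTGGCGC, TTTCGCGC and TTTGCCGC, which 2.26% of all 32851 windows hold. A match was found in 1 of 3 windows of Dnmt1, 1 of 2 windows of Uhrf1 and the only window of Hells. No window of Dnmt3a, Dnmt3b or Dnmt3l held one. The 3 windows with a match are shown with the E2F letters in capitals, followed by windows at the first and the last of the 3 starts of Dnmt3a, shown because the probes of that gene disagree.
Dnmt1, chr9:20952574-20952873, minus strand: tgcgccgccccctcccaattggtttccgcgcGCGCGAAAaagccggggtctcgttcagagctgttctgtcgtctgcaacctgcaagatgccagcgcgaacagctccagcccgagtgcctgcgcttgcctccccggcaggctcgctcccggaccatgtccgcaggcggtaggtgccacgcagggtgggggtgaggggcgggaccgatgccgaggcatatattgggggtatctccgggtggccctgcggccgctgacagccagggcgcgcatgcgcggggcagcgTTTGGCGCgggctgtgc
Uhrf1, chr17:56304063-56304362, plus strand: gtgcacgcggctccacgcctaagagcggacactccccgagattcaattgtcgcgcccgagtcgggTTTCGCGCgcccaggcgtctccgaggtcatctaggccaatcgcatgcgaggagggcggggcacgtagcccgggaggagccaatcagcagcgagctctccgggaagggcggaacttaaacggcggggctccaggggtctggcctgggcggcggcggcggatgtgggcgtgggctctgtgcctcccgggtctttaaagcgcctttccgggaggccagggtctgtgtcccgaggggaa
Hells, chr19:38930740-38931039, plus strand: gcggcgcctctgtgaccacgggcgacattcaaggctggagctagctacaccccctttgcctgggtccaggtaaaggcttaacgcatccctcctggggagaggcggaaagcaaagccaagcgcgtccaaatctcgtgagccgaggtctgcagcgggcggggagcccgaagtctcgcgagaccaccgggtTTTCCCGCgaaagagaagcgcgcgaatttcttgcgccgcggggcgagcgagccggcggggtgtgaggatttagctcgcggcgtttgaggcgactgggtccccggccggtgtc
Dnmt3a first start, chr12:3806730-3807029, plus strand: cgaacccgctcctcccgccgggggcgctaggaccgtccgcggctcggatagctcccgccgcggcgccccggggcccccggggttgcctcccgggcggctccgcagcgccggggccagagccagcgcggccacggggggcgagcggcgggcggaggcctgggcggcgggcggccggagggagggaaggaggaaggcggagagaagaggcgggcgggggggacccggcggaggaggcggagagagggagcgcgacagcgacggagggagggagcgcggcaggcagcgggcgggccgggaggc
Dnmt3a last start, chr12:3891494-3891793, plus strand: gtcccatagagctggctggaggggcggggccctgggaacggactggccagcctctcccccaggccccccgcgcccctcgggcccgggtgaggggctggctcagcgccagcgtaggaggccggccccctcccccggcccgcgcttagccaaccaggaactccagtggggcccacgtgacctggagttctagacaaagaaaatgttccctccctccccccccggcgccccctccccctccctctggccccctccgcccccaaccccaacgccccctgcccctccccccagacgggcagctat
The Dnmt1 window held 2 matches, starting at -219 and 34 from the start, the Uhrf1 window 1 at -185 and the Hells window 1 at -62. None of them overlapped a GC box or CCAAT match. The last Dnmt3a start lies 84.8 kb downstream of the first. The first window holds 46 CG pairs and the last holds 18, against a median of 7.0 over all windows. The windows of Dnmt1, Uhrf1 and Hells with an E2F match hold 33, 33 and 34. Every E2F string searched contains CG, and the share of 2.26% was not matched for CG content. The GC box GGGCGG, present in 35.7% of all windows, occurred in every Dnmt3a window, and CCAAT, present in 37.4%, in none of them. Direct repeats of AGGTCA spaced by 2 or by 5 bases, the form of retinoic acid response elements, were in no window of the 6 genes, and each spacing was in 3 of all 32851 windows. The table does not say which transcript a window belongs to, and a match is a description of letters, not a bound site.

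On the 6 arrays 65.9% to 70.8% of spots were well above background and 0 were saturated. The E12.5 arrays shared a slide, and the 4 arrays of E13.5 and E14.5 shared a second, so a difference from E12.5 and a difference between slides cannot be told apart, and the change between E13.5 and E14.5 is the only one measured inside a slide. Cyp26b1 itself gave signal above background on every array (log2 levels of 3.83 to 4.96). Its place relative to the deletion is not known here, so it does not check the genotype. The gonad's own cell types were present: all 8 Sertoli cell markers and 11 of 12 germ cell markers were well above background on all 6 arrays, the exception being Nanos2, which was so on no E12.5 array. Levels below are log2 signals minus the array's 75th percentile over all probes, so 0 is a probe brighter than 75% of probes. They compare 1 probe across arrays, never 1 probe with another. A change is the difference of 2 stage means ± SE from limma on 28389 probes, n = 2 arrays per stage, called at a Benjamini-Hochberg adjusted p below 0.05. P-values rest on the spread between duplicates only, each probe's own spread being drawn toward that of all tested probes. Dnmt1 and Hells, whose duplicates lay very close, therefore still carry an SE of 0.11.

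All 9 probes were well above background on all 6 arrays. From E12.5 to E13.5, 1 of them rose (a Dnmt3a probe) and 4 fell (Dnmt1, both Uhrf1 probes and Dnmt3b). In that comparison 14.9% of all tested probes rose and 12.8% fell. From E12.5 to E14.5, 2 rose (the same Dnmt3a probe and Dnmt3l) and 6 fell (the 4 before and the other Dnmt3a probes), against 21.1% and 19.3% of all tested probes. Hells passed in neither. From E13.5 to E14.5 limma called 0 of the 9, with 2 at an unadjusted p under 0.05 (Dnmt3a and Dnmt3l). In that comparison 0.00352% of tested probes, a single unnamed probe, were called, and 4142 had an unadjusted p under 0.05. Under scaling by each array's median the share of rises among all calls from E12.5 to E14.5 was 38.5% in place of 52.2%, and under normexp background correction 62.2%. From E12.5 to E13.5 normexp gave 64.0% in place of 53.8%. Median scaling moved the median change of all probes from E12.5 to E14.5 from 0.00 to -0.15, so changes of that size depend on the scaling.

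**Figure D1:**
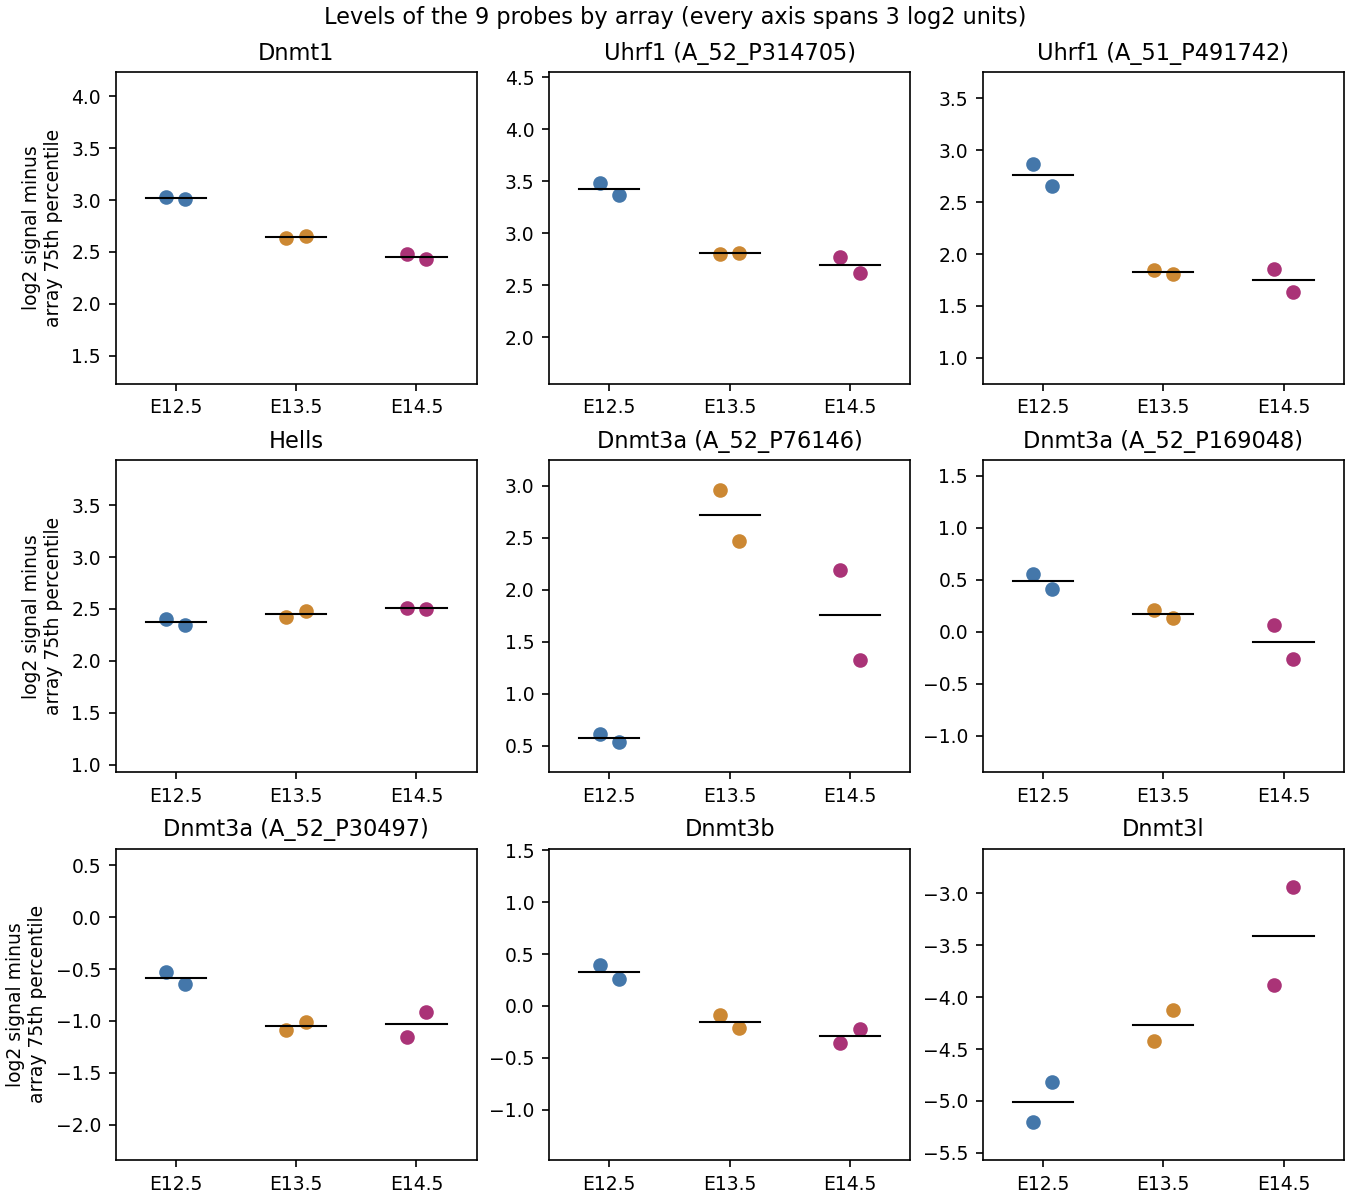
Log2 signal minus the array's 75th percentile (vertical axes, each spanning 3 log2 units) for the 9 probes at the 3 stages, with a point for each array and a bar for the mean of 2. Dnmt1, Uhrf1 and Dnmt3b were highest at E12.5, Hells lay between 2.35 and 2.51, the first Dnmt3a probe was highest at E13.5 and Dnmt3l at E14.5.

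Dnmt1, the maintenance methyltransferase, fell in small steps. The E12.5 arrays gave levels of 3.03 and 3.01, the E13.5 arrays 2.63 and 2.65, and the E14.5 arrays 2.48 and 2.43, and no 2 stages overlapped. The duplicates lay within 0.05 of each other at every stage. By E13.5 it had fallen by 0.38 ± 0.11 (adjusted p = 0.0482), and by E14.5 it had fallen 1.48-fold (-0.56 ± 0.11, adjusted p = 0.0113). The step from E13.5 to E14.5, -0.19 ± 0.11, did not pass (adjusted p = 0.469). The E13.5 call is a marginal one, lost in 11 of 18 other settings, among them median scaling (adjusted p = 0.0675), normexp (0.0776) and each of the 6 fits without 1 array. Leaving out the second E14.5 array lost the E14.5 call (adjusted p = 0.0594).

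Uhrf1, the reader of hemimethylated DNA that guides DNMT1, fell on both of its probes. The brighter probe, A_52_P314705, stood at 3.48 and 3.37 on the E12.5 arrays, 2.80 and 2.81 on the E13.5 arrays, and 2.77 and 2.62 on the E14.5 arrays. The other, A_51_P491742, stood at 2.87 and 2.65, then 1.85 and 1.81, then 1.86 and 1.63. On both, the 2 E12.5 arrays were the highest of the 6, and the E13.5 and E14.5 arrays lay close together, overlapping on the second probe. By E13.5 the probes had fallen by 0.62 ± 0.12 (adjusted p = 0.0188) and 0.93 ± 0.14 (adjusted p = 0.0108). By E14.5 they had fallen 1.66-fold (-0.73 ± 0.12, adjusted p = 0.00766) and 2.02-fold (-1.02 ± 0.14, adjusted p = 0.00511). The changes from E13.5 to E14.5 were -0.11 ± 0.12 and -0.08 ± 0.14 (adjusted p = 0.709 and 0.821). The E14.5 calls of both probes were kept in every setting run on single probes. The E13.5 calls were lost without either E13.5 array on the second probe (0.0502 and 0.0705), and on the first probe with no background filter (0.0571) and without any 1 of the 4 arrays compared (0.0524 to 0.101). The change on the second probe minus that on the first was -0.31 ± 0.09 by E13.5 (adjusted p = 0.055) and, by E14.5, -0.29 ± 0.09 (0.0662), a difference that did not pass.

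Hells, the remodeller, was the member for which no change was called. It stood at 2.40 and 2.35 on the E12.5 arrays, 2.42 and 2.48 on the E13.5 arrays, and 2.51 and 2.50 on the E14.5 arrays. Each stage lay just above the one before, within a total range of 0.17 across the 6 arrays. The changes were 0.08 ± 0.11 (adjusted p = 0.617), 0.06 ± 0.11 (0.839) and, over the whole interval, 0.13 ± 0.11 (0.354). These sizes are within what the choice of scaling moves: the sign turned under normexp for the first (-0.02) and under median scaling for the second (-0.04) and the third (-0.01).

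Dnmt3b, a de novo methyltransferase most active in the early embryo, fell alongside Dnmt1 and Uhrf1. Levels were 0.39 and 0.26 on the E12.5 arrays, -0.09 and -0.21 on the E13.5 arrays, and -0.36 and -0.22 on the E14.5 arrays. The E12.5 arrays were above the later arrays, and the E13.5 arrays lay above the E14.5 arrays by little. The fall was -0.48 ± 0.12 by E13.5 (adjusted p = 0.0397) and -0.61 ± 0.12, or 1.53-fold, by E14.5 (adjusted p = 0.0141). Between the later stages the change was -0.14 ± 0.12 (adjusted p = 0.648). The E13.5 call was lost in 10 of 18 other settings, including normexp (-0.21, 0.237) and every fit without 1 array. The E14.5 call was lost with normexp (-0.32, 0.0708), and when the first array of either E12.5 or E14.5 was left out.

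Dnmt3l, the stimulator of de novo methylation in germ cells, rose from a dim start. Its signals, on the scanner's linear scale, were 48.6 and 49.2 on the E12.5 arrays, 57.3 and 57.7 on the E13.5 arrays, and 66.2 and 143 on the E14.5 arrays, where the dimmest probe called above background had 9.99 to 21.6 depending on the array. As levels these were -5.20 and -4.82, then -4.42 and -4.12, then -3.88 and -2.94. The stages did not overlap and stood in the order of age, but the E14.5 duplicates differed by 0.94 log2 units, the widest gap of the 9 probes at any stage. Over the whole interval Dnmt3l rose 3.04-fold (1.61 ± 0.33, adjusted p = 0.0149), a rise that 4.36% of tested probes matched or exceeded. The steps of 0.74 ± 0.33 to E13.5 (adjusted p = 0.145) and 0.86 ± 0.33 from E13.5 to E14.5 (adjusted p = 0.327, unadjusted p = 0.0428) did not pass. Leaving out the first E12.5 array lost this 3.04-fold call (1.41). Over the 17 settings run on single probes, the main one included, the change from E12.5 to E14.5 ran from 1.06 to 2.07.

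Dnmt3a, the de novo methyltransferase of male germ cells, gave opposite answers on different probes. The brightest probe, A_52_P76146, stood at 0.61 and 0.53 on the E12.5 arrays, 2.96 and 2.47 on the E13.5 arrays, and 2.19 and 1.32 on the E14.5 arrays. All 4 later arrays were above both E12.5 arrays, and both E13.5 arrays were above both E14.5 arrays. The rise to E13.5 was 4.43-fold (2.15 ± 0.32, adjusted p = 0.0100), which 1.03% of tested probes matched or exceeded. At E14.5 it was still 2.27-fold above E12.5 (1.18 ± 0.32, adjusted p = 0.0316). The drop from E13.5 to E14.5, -0.97 ± 0.32, did not pass (adjusted p = 0.286, unadjusted p = 0.0241), although 1.01% of tested probes dropped as far. The E13.5 rise was lost in the mean of the 3 probes (0.46, 0.0606) and, narrowly, without the second E12.5 array (2.10, 0.0503). The rise to E14.5 was lost in 5 other settings, among them the mean of the 3 probes and no background filter (adjusted p = 0.0741). Fits that left out E14.5 array 1 (0.75), or any 1 of the E12.5 arrays, also lost this rise.

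The other 2 Dnmt3a probes went down. A_52_P169048 stood at 0.56 and 0.41 on the E12.5 arrays, 0.21 and 0.13 on the E13.5 arrays, and 0.07 and -0.26 on the E14.5 arrays. A_52_P30497 stood at -0.53 and -0.64, then -1.09 and -1.01, then -1.15 and -0.91. On both probes the E12.5 arrays were the highest, as for Dnmt1, Uhrf1 and Dnmt3b. By E14.5 they had fallen by 0.58 ± 0.15 (adjusted p = 0.0296) and 0.45 ± 0.13 (adjusted p = 0.0423). By E13.5 they were at -0.31 ± 0.15 (0.172) and -0.46 ± 0.13 (0.0504), which did not pass. The second of these passed in 5 of the other 16 settings run on single probes (adjusted p down to 0.0267), quantile and median scaling among them. The E14.5 falls were lost in 6 and 10 of the other 16 settings run on single probes.

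**Figure D2:**
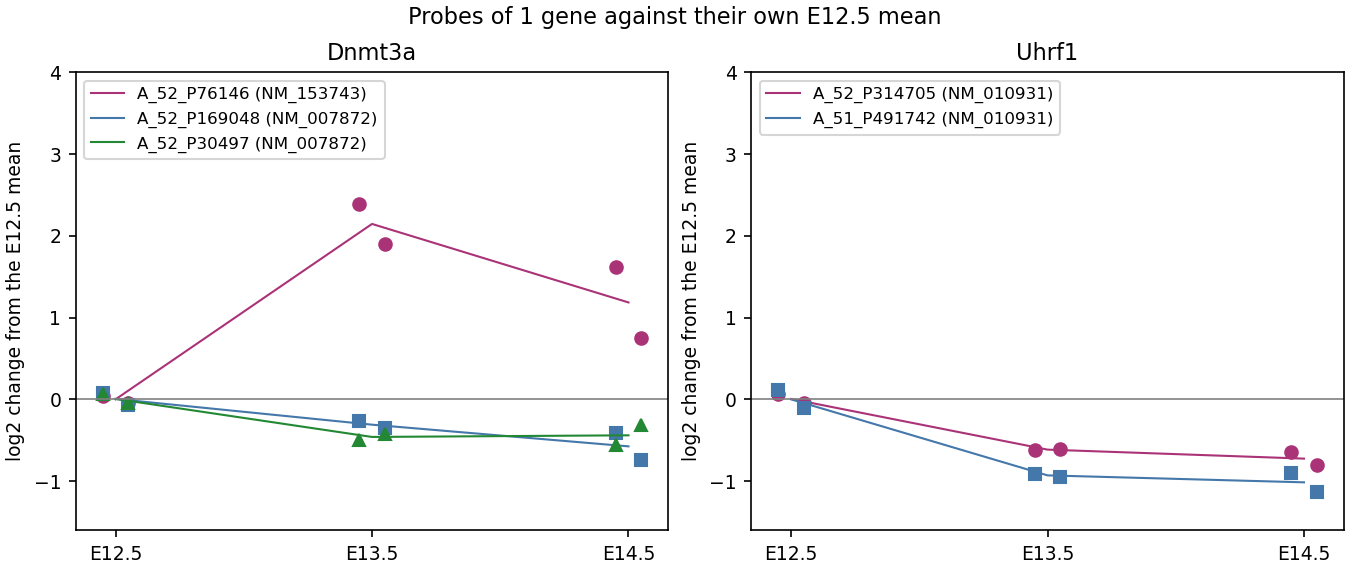
Log2 change of each array from the probe's own E12.5 mean (vertical axis) at the 3 stages, for the 3 Dnmt3a probes and the 2 Uhrf1 probes; points are arrays, lines join stage means, and the legend gives the later slide's accession. The first Dnmt3a probe rises to 2.15 at E13.5 and the other 2 lie below 0 there, whereas both Uhrf1 probes go down.

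The disagreement was tested on the per-array difference between 2 probes of 1 gene, in which array scaling cancels. Relative to A_52_P76146, the change from E12.5 to E13.5 was -2.46 ± 0.22 on A_52_P169048 (adjusted p = 0.00726) and -2.61 ± 0.38 on A_52_P30497 (adjusted p = 0.0119). To E14.5 the differences were -1.76 ± 0.22 (0.00802) and -1.63 ± 0.38 (0.0306). Unequal change between probes of a gene was common across the slides: of 5342 probe pairs measured on all 6 arrays, 27.0% were called from E12.5 to E13.5 and 28.4% from E12.5 to E14.5. The size was not common, with a median of 0.27 over all pairs, and 0.337% and 0.281% of pairs as far apart as these 2. Within the later slide, from E13.5 to E14.5, 0.0% of pairs were called, with 366 at an unadjusted p under 0.05. There the 2 Dnmt3a pairs differed by 0.70 ± 0.22 and 0.98 ± 0.38 (adjusted p = 0.712 for both; unadjusted 0.0219 and 0.0463), as A_52_P76146 dropped more than the others. The first pair's E13.5 difference was lost without the first E13.5 array (0.0525), a fit that left 5 calls among all pairs in place of 1440. For the second pair, fits without either E13.5 array or without E12.5 array 1 lost the E13.5 difference (adjusted p up to 0.067), and the E14.5 difference was lost in 5 of 11 other settings (up to 0.114).

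The probes also differ in what the array files say they target. Both A_52_P169048 and A_52_P30497 carry NM_007872 in the files of both slides. A_52_P76146 carries NM_007872 in the E12.5 files but NM_153743 in the later files, which are annotated differently for 2904 probes, the Dnmt3b probe among them. As background, NM_007872 and NM_153743 are separate Dnmt3a transcripts, the latter encoding the shorter DNMT3A2, which starts at a promoter inside the gene and is the main form in embryonic stem cells and germ cells. Probe sequences were not used here, so what each probe detects rests on this annotation alone.

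**Figure D3:**
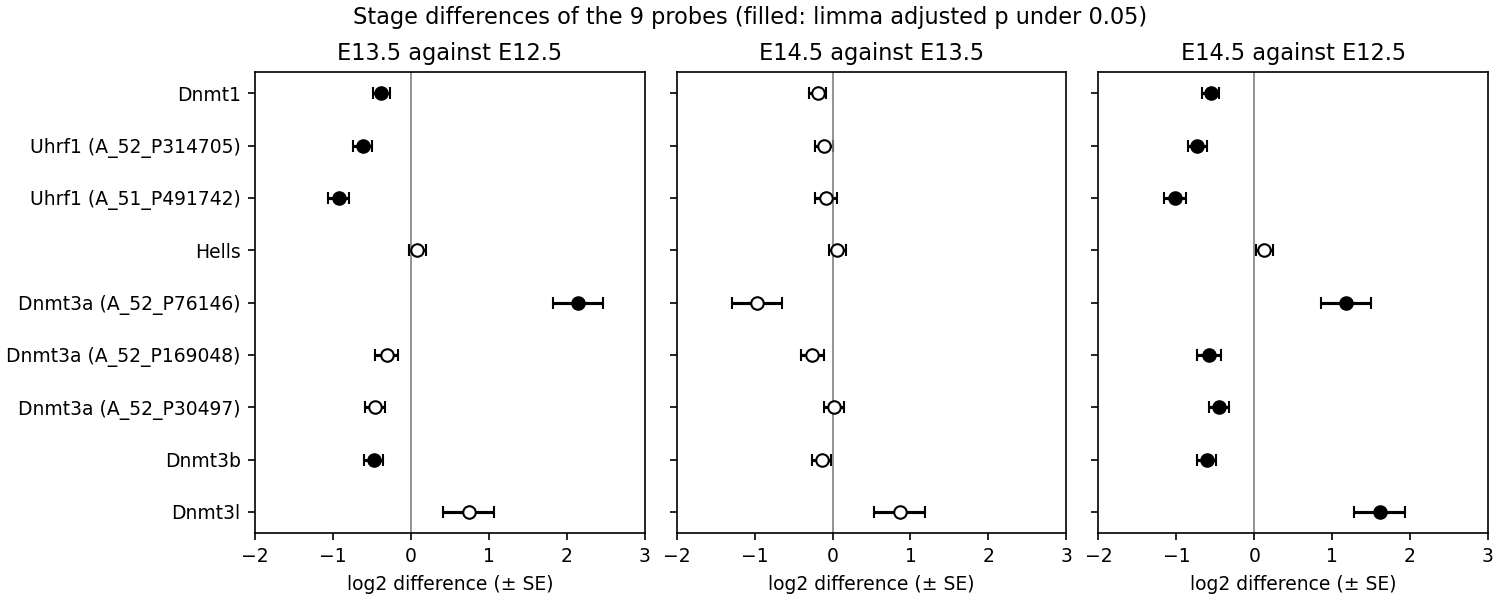
Log2 difference between stages ± SE (horizontal axes, limma, n = 2 arrays per stage) for the 9 probes in the 3 comparisons; filled points passed at an adjusted p below 0.05. Of 9 probes, 5 passed from E12.5 to E13.5, 0 from E13.5 to E14.5 and 8 from E12.5 to E14.5.

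The authors' deposited table gives 1 ratio per probe and stage against an unstated reference, and log2 differences between its columns had the sign of the values above for every member from E12.5 to E14.5. In the authors' deposited table that change was -0.58 for Dnmt1, -0.75 and -1.03 for Uhrf1, 0.12 for Hells, -0.63 for Dnmt3b, 1.59 for Dnmt3l, and 1.17, -0.59 and -0.46 for the Dnmt3a probes. In the authors' deposited table Hells stood at 0.18 from E12.5 to E13.5 and -0.06 from E13.5 to E14.5. Dnmt3a A_52_P30497 also had the other sign there from E13.5 to E14.5 (-0.11 against 0.02 by limma). The single steps were split differently, Dnmt1 being at -0.27 and then -0.31, against -0.38 and -0.19 by limma. Every member probe was shifted nearly alike: up from E12.5 to E13.5 (Dnmt3l at 0.85 against 0.74) and down from E13.5 to E14.5 (0.74 against 0.86). This is a difference in scale between stages, not between genes, and it includes the signs that turned. The shared signs are therefore no independent check.

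Genes that work beside these enzymes were counted from 6 lists, each gene by its brightest probe, from E12.5 to E14.5. From E13.5 to E14.5 limma called 0 of the 106 measured genes of these lists, with 23 at an unadjusted p under 0.05, and under normexp 3 germline genes were called higher there. All counts are of genes that passed the background filter, and shares are given beside those over all tested probes. Where a gene named with its value has several measured probes and they disagree, the other value is given. The counts also hold genes that are not named, and some of these have probes that disagree. For them only the brightest probe was counted, and the other values are not given.

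Among partners and chromatin links of the methyltransferases, 2 of 27 measured genes rose, 6 fell and 19 did not pass. These shares were 7.41% and 22.2%, against 21.1% and 19.3% of all tested probes, and the median was -0.18 against 0.00 for all tested probes. Those that rose were Ehmt2 (0.82 ± 0.11, adjusted p = 0.00511), the histone H3 lysine methyltransferase G9a, and Trdmt1 (0.69 ± 0.15, 0.0172), a tRNA methyltransferase once named Dnmt2. The deacetylase gene Hdac2 (-1.57 ± 0.14, 0.00179), the remodeller gene Atrx (-1.45 ± 0.28, 0.0117) and the replication clamp gene Pcna (-0.78 ± 0.16, 0.0158), which also binds DNMT1, fell. Smchd1, also counted as fallen (-0.46), was at 0.02 on its other probe. Without the second E14.5 array 1 rose and 1 fell, without the first E14.5 array or the first E12.5 array 1 rose and 2 fell, and without the second E12.5 array or with no background filter 2 rose and 3 fell.

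Among genes of demethylation and methyl-CpG reading, 4 of 19 rose, 8 fell and 7 did not pass, with a median of -0.45. The share that rose, 21.1%, was that of all tested probes, and the share that fell was 42.1% against 19.3%. Apobec2, of the cytidine deaminase family, fell by 1.59 ± 0.16 (adjusted p = 0.00233). Parp1, whose enzyme marks DNA breaks with ADP-ribose, was lower by E14.5 (-0.68 ± 0.12, 0.0104). Tet2 (-0.56), Tdg (-0.56) and Zbtb33 (-0.54), also counted as fallen, were at -0.02, -0.25 and 0.19 on their other probes. The stress-response genes Gadd45b and Gadd45g went opposite ways, at 1.13 ± 0.16 (0.00515; other probe 0.69) and -0.98 ± 0.14 (0.00541). The other 3 that rose were Xrcc1 (0.66 ± 0.14, 0.0168), of single-strand break repair, Apobec3 (0.52 ± 0.12, 0.0198) and Apobec1 (0.44 ± 0.11, 0.0305). Tet1 and Tet3, which oxidise methylcytosine, were matched to no probe. Without the second E14.5 array 1 rose and 3 fell, without the first 1 and 4, without the first E12.5 array 3 and 3, and without the second E12.5 array 1 and 7. With no background filter 2 rose and 4 fell.

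In methyl donor supply, 3 of 13 rose, 3 fell and 7 did not pass, with a median of -0.18. Each share, 23.1%, was near the 21.1% and 19.3% of all tested probes. The folate enzyme genes Mthfd1 (-1.18 ± 0.17, adjusted p = 0.00524; other probe -0.89) and Shmt1 (-0.57 ± 0.13, 0.0189; other probe -0.39) fell, as did Bhmt (-1.46 ± 0.33, 0.0201), which remakes methionine from homocysteine. Bhmt was dim, with a mean level of -5.81 at E14.5. The lowest levels well above background on those arrays were -6.43 and -6.19. Mat1a, an S-adenosylmethionine synthetase gene, rose at least 2.15-fold (adjusted p = 0.00619), a bound because it was not well above background on any E12.5 array. It passed the filter through E14.5 alone, and with a filter on all arrays 2 of 12 rose. Ahcyl1 (0.48 ± 0.14, 0.0388) and Ahcyl2 (0.38 ± 0.11, 0.0432; other probes 1.75 and 1.64) also rose. The rises were fewer in most other settings: 1 was called with median scaling, with no background filter, with the replicate block, with 4 arrays, and in every fit without 1 array except that without the first E14.5 array, which called 2. The number that fell ran from 1 to 3 in the fits without 1 array.

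The piRNA pathway directs new methylation to transposons in fetal male germ cells. Of its 16 listed genes 10 were measured, 7 rose and 0 fell (limma; 0 of 10 were below 0 there), a share of 70.0% that rose against 21.1% of all tested probes, with a median of 1.36. Fkbp6 rose by 2.15 ± 0.15 (adjusted p = 0.0014; other probe 1.56), Mael by 1.88 ± 0.15 (0.0016), Mov10l1 by 2.77 ± 0.26 (0.00206; other probe 1.23) and Tdrd1 by 1.81 ± 0.24 (0.0044; other probe 1.84). The 3 that did not pass were Morc1 (0.91 ± 0.36, 0.0964), Piwil2 (0.37 ± 0.21, 0.195) and Tdrd12 (0.29 ± 0.19, 0.264; other probe -0.07). The number that rose ran from 6 to 8 in the settings run. Piwil4, whose protein carries piRNAs into the nucleus, was matched to no probe.

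Germline genes that somatic cells keep silent through promoter methylation rose: 18 of 18 measured genes passed, against 21.1% of all tested probes, with a median of 1.85. Taf7l, of a germ cell transcription complex, rose by 5.62 ± 0.25 (adjusted p = 0.00103; other probe 5.29), Tex101 by 4.23 ± 0.26 (0.00126), Sycp3, of the meiotic chromosome axis, by 3.24 ± 0.22 (0.00137), and Dpep3, which was not well above background at E12.5 and passed the filter through the later stages, at least 15.6-fold (0.00119). The number that rose ran from 13 without the first E12.5 array to 18. Dazl, also in this list, was at 0.84 ± 0.20 (0.0214) on its brightest probe and -0.29 on the other. This list shares Fkbp6, Mael, Mov10l1, Tdrd1 and Asz1 with the piRNA list, and it was known from earlier results on these data that germ cell genes had risen.

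**Figure D4:**
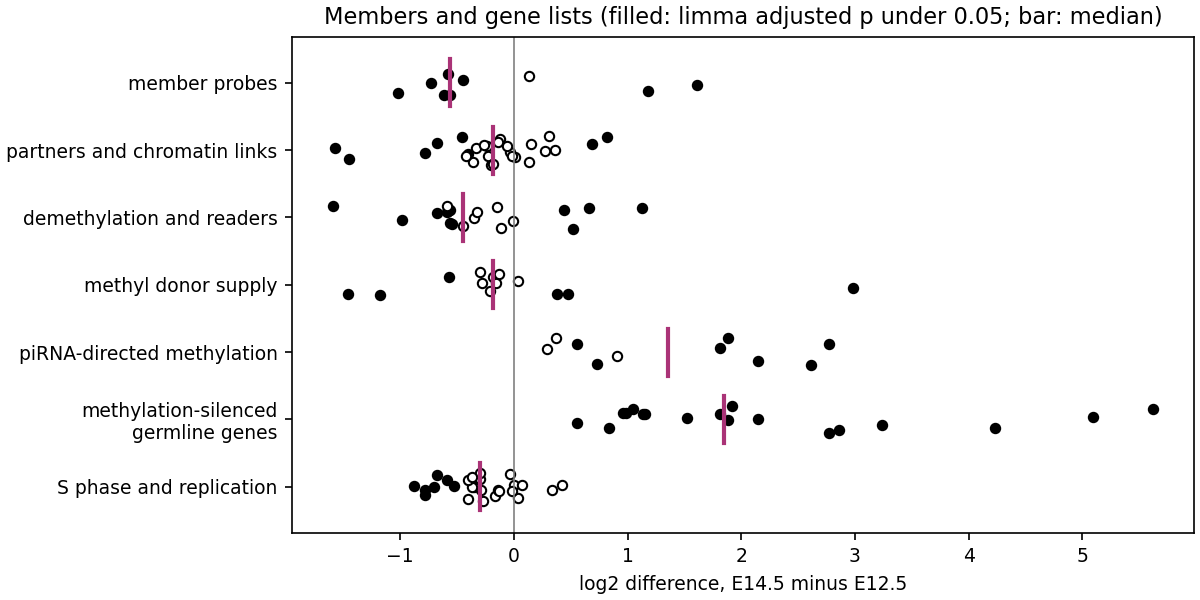
Log2 difference between E12.5 and E14.5 (horizontal axis) for the 9 member probes and for the measured genes of 6 lists, each gene by its brightest probe; filled points passed at an adjusted p below 0.05 and bars are medians. Points are spread vertically at random. Mat1a (2.98) and Dpep3 (5.09) are drawn at their fitted differences. Neither was well above background on any E12.5 array, so the text gives bounds for them. The medians of the piRNA and germline lists, 1.36 and 1.85, lie to the right of 0 and those of the other 4 lists to the left.

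Of 26 S phase and replication genes 0 rose by limma (1 at an unadjusted p under 0.05), 7 fell and 19 did not pass, with a median of -0.30. The share that fell was 26.9%, against 19.3% of all tested probes. Rrm2 (-0.88 ± 0.12, adjusted p = 0.00484) and Tyms (-0.78 ± 0.16, 0.0154; other probe -0.94), both of nucleotide supply, the helicase subunit gene Mcm4 (-0.70 ± 0.12, 0.00842) and the cyclin gene Ccne1 (-0.68 ± 0.14, 0.015; other probe -0.70) fell. The number that fell ran from 2 without the second E14.5 array and 3 without the second E12.5 array to 11 with median scaling and 13 with normexp, which also called 1 rise. Summed over the 26 genes, the linear level relative to the 75th percentile was 483 and 496 on the E12.5 arrays, 467 and 433 on the E13.5 arrays, and 408 and 368 on the E14.5 arrays. The part of this in the falls of Dnmt1, Uhrf1 and Dnmt3b was not tested.

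From E12.5 to E13.5 the same lists were counted, values being log2 differences. Over all tested probes 14.9% rose and 12.8% fell. Of the partners 2 rose (Ehmt2 at 0.87 and Trdmt1 at 0.61) and 4 fell (Atrx at -1.48, Hdac2 at -1.39, Ehmt1 at -0.63 and Smchd1 at -0.54, the last with 0.03 on its other probe). Of the demethylation and reader genes 3 rose (Apobec1 at 0.63, Xrcc1 at 0.56 and Apobec3 at 0.47) and 4 fell (Apobec2 at -1.16, Gadd45g at -0.85, Gadd45a at -0.84, and Zbtb33 at -0.54 with 0.07 on its other probe). In methyl donor supply Mthfd1 (-0.69; other probe -0.43) and Bhmt (-1.44) fell. Mat1a, the other gene called there, has no direction given, since it was well above background on 0 E12.5 arrays and 1 E13.5 array. The piRNA list had 7 rises and 0 falls, and the germline list 17 rises, all but 1 of its 18. In the S phase list 0 rose, by adjusted or unadjusted p, and 4 fell: Rrm2 (-0.73), Tyms (-0.59; other probe -0.68), Cdc6 (-0.44; other probe -0.08) and Mcm4 (-0.43). These counts rested on single arrays, except that leaving out an E14.5 array changed neither the piRNA nor the germline count. Without the second E13.5 array the piRNA rises were 3, the germline rises 10 and the S phase falls 0 (2 at an unadjusted p under 0.05). That fit also gave 0 rises and 2 falls among partners, and 0 of either in the demethylation list (3 and 4 unadjusted) and in methyl donor supply (1 and 2 unadjusted). Without the first E13.5 array the piRNA rises were 4, the germline rises 11 and the S phase falls 0 (4 unadjusted), with 1 rise and 1 fall among partners and 0 and 1 in the demethylation list. Without the first E12.5 array there were 4 piRNA rises, 11 germline rises and 1 S phase fall, with 1 rise and 1 fall both among partners and in the demethylation list. Without the second E12.5 array there were 5, 15 and 0 (4 unadjusted), with 2 rises and 2 falls among partners and 0 and 3 in the demethylation list. Without either E14.5 array there were 7, 17 and 1, with 1 rise and 2 falls among partners and 1 and 4 in the demethylation list. With no background filter there were 5, 12 and 1, with 1 and 1, and 0 and 3.

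Cell type markers also changed from E12.5 to E14.5. Of 12 germ cell markers 4 rose, 5 fell and 3 did not pass. Those that rose were Nanos2 (at least 7.15-fold), Mael (1.88), Ddx4 (1.05) and Dazl (0.84; other probe -0.29), Nanos2 having passed the filter through the later stages. Those that fell were Tfap2c (-4.65), Sall4 (-1.21; other probe -0.16), Kit (-0.93), Rhox6 (-0.89) and Dnd1 (-0.63). Leaving out E12.5 array 1, or E14.5 array 2, gave 3 rises and 3 falls. Their summed level was 54.5 and 64.5 on the E12.5 arrays, 80.7 and 84.0 on the E13.5 arrays, and 81.3 and 64.4 on the E14.5 arrays. On the second E14.5 array, the brighter for Dnmt3l, this sum was the lower of the pair, whereas the sums of the piRNA list (56.2 against 48.6) and the germline list (147 against 143) were the higher. So were the fetal Leydig (81.6 against 61.2), macrophage (4.25 against 3.64), interstitial (65.7 against 61.0) and erythroid (183 against 161) sums. The sums of the remaining lists were the lower on that array. Of the 5 measured fetal Leydig cell markers all 5 rose, from Nr5a1 (0.60) to Hsd3b1 (3.83), Star (3.95), Cyp17a1 (5.16) and Cyp11a1 (6.23), with sums of 3.31 and 4.40 at E12.5 and 61.2 and 81.6 at E14.5. Of 6 erythroid markers 4 fell (Hbb-bh1 at -4.15, Hbb-y at -2.86, Klf1 at -2.70 and Hba-x at -2.10). Of 8 Sertoli cell markers Cst9 rose (0.83) and 3 fell (Fgf9 at -2.15, Sox9 at -1.50 with -1.24 and -0.70 on its other probes, and Sox8 at -0.45 with 0.37 on its other probe). The Cst9 rise was lost with median scaling, with no background filter and without any 1 of the 4 arrays of E13.5 and E14.5. Of 4 macrophage markers 3 rose (Lyz2 at 1.33, Csf1r at 1.02 and C1qa at 0.62). Of 5 endothelial markers Kdr fell (-0.86), and of 6 interstitial and peritubular markers Acta2 rose (2.18; other probes 1.83 and 0.19). Of 6 mesonephros and duct markers Pax2 rose (0.82, not called without either E12.5 array or the first E14.5 array) and 3 fell (Lhx1 at -2.71, Calb1 at -2.10 and Emx2 at -1.48). Pax2 was well above background on only 1 E12.5 array, so its 0.82 rests partly on a value below that mark. The part of these cell types in the members' changes was not tested.

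The genes most like each member were found by the root mean square difference between array profiles, each centred on its own mean over the 6 arrays, among 17882 probes of named genes. The points share their arrays, slides and scaling, so this is a description. Nearest to Dnmt3b was Cdc6, a replication licensing gene (0.0173 log2 units, Pearson r 0.999), whose other probe changed less (-0.25 against -0.59 from E12.5 to E14.5). Nearest to Dnmt1 was Rbm5 (0.0275, r 0.998), and to the Uhrf1 probes Pde1a (0.0194, r 0.999) and Rell1 (0.0284, r 0.998), with Gadd45g second for the latter (0.0328, r 0.999). Nearest to Hells was Ggps1 (0.0161, r 0.967). The falling Dnmt3a probes lay closest to Pum3 (0.0201, r 0.997) and Sephs1 (0.0387, r 0.986). The rising profiles had no neighbour as near: the closest to A_52_P76146 was Zbtb7a (0.205, r 0.984), and to Dnmt3l 4930486L24Rik (0.102, r 0.990). This distance is not scaled by the size of a profile's change, and these 2 probes ranged over 2.44 and 2.26 log2 units across the 6 arrays. Their greater distance is therefore not a sign of a profile unlike others. No member was among the 3 nearest of another member.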

How the data were processed

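Male gonads of Cyp26b1-/- embryos were measured on 6 one-colour Agilent arrays, 2 for each of 3 stages. The files give spot intensity per the file headers, made with Agilent Feature Extraction 9.5.3.1 (9.5 in the submitters' processing notes), background-subtracted and not scaled between arrays. The authors' deposited table holds a linear ratio per probe and stage, whose reference is not given in the sources used here. It was compared only as differences between stages and is not an independent check.

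Intensity was log2-transformed, repeated spots of a probe were averaged without outlier-flagged ones, and the array's 75th percentile was subtracted. Genes were named by RefSeq accession, from the later slide's files first (23553 probes named, 17621 not, 21 missing on an array left out). A probe was kept when both arrays of some stage showed it well above background, which left 28389. The test between stages was limma 3.58.1 under R 4.3.3 (lmFit and eBayes, two-sided, 3 residual and 2.67 prior degrees of freedom, Benjamini-Hochberg over all kept probes), after a test on simulated data. A bound ("at least") takes the dim stage at each array's lowest signal that still passed as above background. Named were all member probes, up to 4 genes of lowest adjusted p per list, members of counts of 5 or fewer, and the 3 nearest profiles; Dazl, Tdrd12, the cell type markers, and Tet1, Tet3 and Piwil4 were named after their values were seen. The members and lists were chosen with earlier results of these data known, and 2 listed genes are not reported here and were left out of the list counts. Alternatives were quantile and median scaling, normexp (offset 50), other filters, gene-level values, another prior, a replicate block, 4 arrays only and leaving out each array. Python 3.11.15, pandas 2.3.3 and matplotlib 3.10.9 were used. The number of arrays limits the precision.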

Additional observations from a re-analysis of the deposited data

How the results depend on the processing

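With 2 arrays per stage and marginal p-values, the number of member probes called depended on the setting more than their direction did. From E12.5 to E13.5 it was 5, but 6 (1 higher, 5 lower) with quantile scaling, a filter on all arrays, named probes only or the trend and robust prior, 3 with normexp, 2 with no background filter, 3 genes with the mean of probes per gene, 3 with the replicate block, 3 with 4 arrays, and 1 to 3 without 1 array. From E12.5 to E14.5 it was 8, but 5 with no background filter, 5 genes by their brightest probe, 4 genes by the mean of probes, and 3 to 6 without 1 array. Same-gene probe differences called were 2 in each of these comparisons, and 0 to 2 and 1 to 2 without 1 array. Over all probes the calls from E12.5 to E13.5 were 7854, from 1555 without the second E13.5 array to 9783 with normexp, with 3337 under no background filter and 4320 and 4242 genes by brightest probe and by mean. From E12.5 to E14.5 they were 11465, from 5578 when the second E14.5 array was left out to 13123 with normexp, with 7593 under no background filter and 6297 and 6208 genes. From E13.5 to E14.5 the 1 call became 288 with normexp, 19 with median scaling, 7 genes by brightest probe, 2 with 4 arrays, 0 with a filter on all arrays, named probes only or the mean of probes, and 6 to 33 without an array of those stages. Signs turned for values near 0 that had not passed: Hells (-0.02 with normexp, -0.04 and -0.01 with median scaling), Dnmt3a A_52_P30497 from E13.5 to E14.5 (-0.01 with quantile scaling, -0.08 with median scaling, and -0.10 to 0.13 without 1 array, being -0.02 without the first of E13.5 and -0.10 without the second of E14.5), Uhrf1 A_51_P491742 (-0.20 to 0.03 without 1 array) and the Uhrf1 pair (-0.01 to 0.06 without 1 array). The cause was not tested. Whether array numbers pair the samples cannot be settled with 2 arrays per stage. Deviations of same-numbered arrays correlated at -0.115 (E12.5 and E13.5), -0.0886 (E12.5 and E14.5) and 0.241 (E13.5 and E14.5). The replicate block left 7 member calls from E12.5 to E14.5 and 6021, 1 and 10207 calls over all probes. Dim probes such as Dnmt3l's are limited by signal over background.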
